A study of Mus musculus with 10 samples.

Results

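Hepatocyte metabolic enzyme transcripts were examined in RNA-seq libraries of C2C12 cells, a mouse myoblast line that fuses into myotubes. The set held 8 of the 55359 genes of the deposited table, namely *Cps1*, *Ass1*, *Arg1*, *Agxt*, *Hpd*, *Cyp2e1*, *Cyp4a10* and *Adh1*. They were chosen by symbol, because liver transcripts had been seen to be higher in the knockdown libraries of these same data and because these 8 encode enzymes that stay inside the cell. Their difference between the groups is therefore a description and was not tested. All cells received siRNA at 100 nM with RNAiMAX in DMEM containing 20% FBS, and were then kept in differentiation medium containing 2% horse serum until day 4. The 5 si-Control libraries came from cells given a control siRNA and the 5 si-*Fndc1* libraries from cells given an siRNA against *Fndc1*, which encodes a protein with fibronectin type III domains. Nothing in the labels says whether the 5 libraries of a group came from separate cultures, so that p-values measure only the spread between these libraries, which may be technical.

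Hepatocytes dispose of nitrogen, alcohol, drugs and fatty acids with enzymes that few other cells make in quantity. The urea cycle turns ammonia into urea in periportal hepatocytes, peroxisomal and cytosolic enzymes break down glyoxylate and aromatic amino acids, and cytochrome P450 enzymes of the endoplasmic reticulum oxidise fatty acids and foreign compounds. Some of the single enzymes, such as those that complete the cycle or open the oxidation of fatty acids, are also made in many other tissues.

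The total count was 66771605 to 75995168 per si-Control library and 56332844 to 72839369 per si-*Fndc1* library, so that 3 counts, the limit that a count of 0 allows, corresponded to 0.0394 to 0.0530 CPM (the count scaled to a common library size of 1000000) in a library. Such limits and the intervals given here cover counting error only. *Fndc1* itself was at 27.8 ± 2.04 FPKM (a count scaled to the length of the transcript as well as to the library) in si-Control and at 20.9 ± 1.70 FPKM in si-*Fndc1* (SD, 5 libraries each), 0.752 of the control level, with no overlap between the groups (exact permutation test, two-sided, p = 0.00794, which no 5 against 5 libraries can go below). Of 12 genes of differentiating muscle, 3 were higher (*Myod1*, *Ckm* and *Mymk*), 1 was lower (*Mymx*) and 8 did not pass the test (edgeR, adjusted p under 0.05). Over all 13548 tested genes 17.3% were higher and 17.2% lower. The summed level of the 12 was 10684 to 12167 CPM in si-Control and 9898 to 11912 CPM in si-*Fndc1*.

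For 6 of the 8 members the CPM ranges were apart, each higher in si-*Fndc1*; among the 28952 genes with a count, 6.79% were higher without overlap. The exceptions were *Ass1* and *Agxt*. A mean of 0.5 FPKM over the 10 libraries was required for the fit across genes, and 6 members reached it, *Cps1* and *Agxt* being below. Apart from *Ass1*, those that reached it did so only through the si-*Fndc1* libraries. The plot of the members by library shows *Ass1* as the only member with a sizeable level in both groups.

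**Figure D1:**
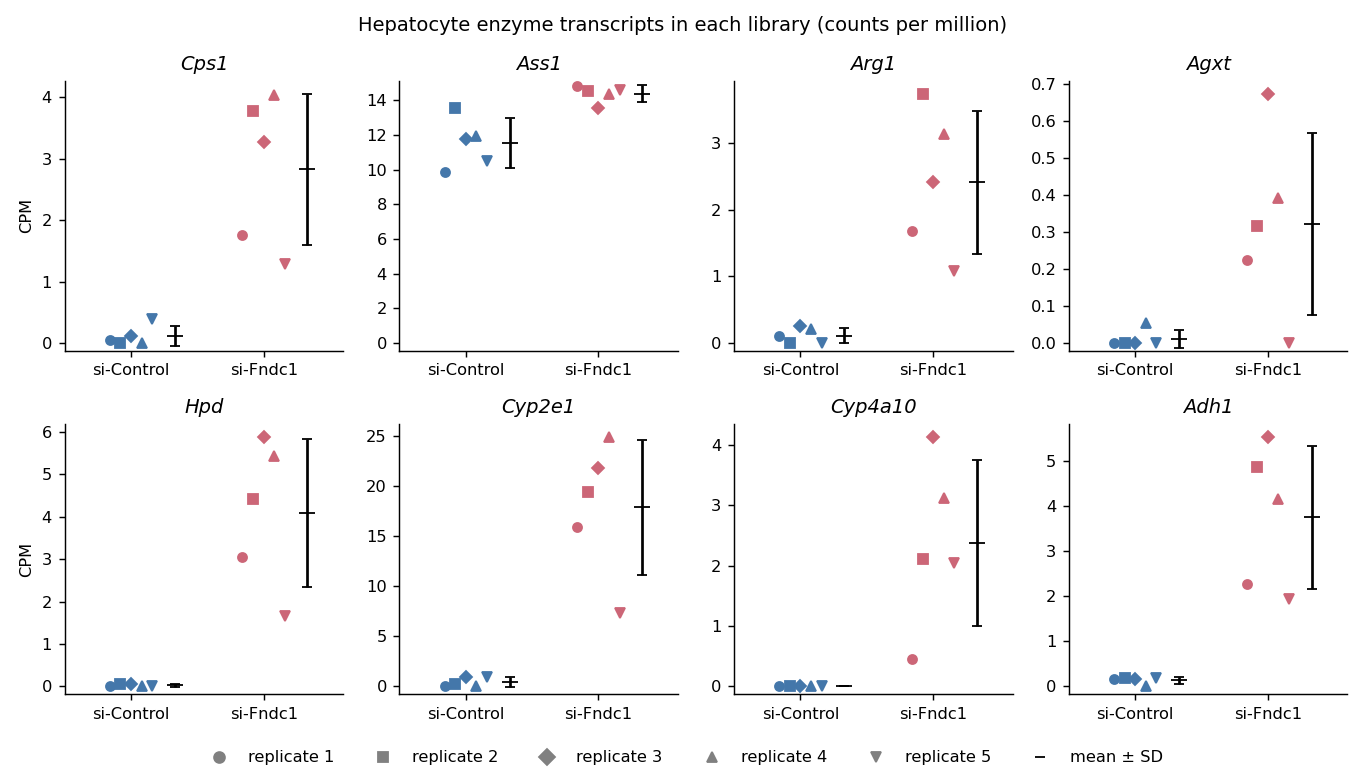
Level of each of the 8 members (vertical axis, CPM, linear and separate for each gene) in the 5 si-Control and 5 si-Fndc1 libraries (horizontal axis), with 1 symbol per replicate and the mean ± SD as a bar. Ass1 lay between 9.85 and 14.8 CPM over both groups, whereas the other 7 members lay between 0 and 0.966 CPM in si-Control and reached 0.673 to 24.9 CPM in si-Fndc1.

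Of the urea cycle enzymes, *Cps1* (ENSMUSG00000025991), the mitochondrial synthetase that commits ammonia to the cycle, maps to chr1:67162185-67270418 (plus strand, GRCm39). It had 4, 0, 8, 0 and 26 counts in si-Control replicates 1 to 5 and 125, 275, 229, 288 and 73 counts in si-*Fndc1* replicates 1 to 5. Its lowest si-*Fndc1* library was thus above its highest si-Control library. The mean level was 0.111 ± 0.162 CPM in si-Control and 2.83 ± 1.23 CPM in si-*Fndc1* (SD, n = 5 each), a ratio of 25.6, which became 68.8 without si-Control replicate 5.

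*Arg1* (ENSMUSG00000019987), the cytosolic arginase that releases urea, maps to chr10:24791119-24803382 (minus strand). Its counts were 8, 0, 18, 16 and 0 in si-Control and 119, 272, 169, 224 and 61 in si-*Fndc1*. In si-Control, replicates 1 and 3 held reads of both *Arg1* and *Cps1*, replicate 4 of *Arg1* alone, replicate 5 of *Cps1* alone and replicate 2 of neither. The mean level of *Arg1* was 0.115 ± 0.118 CPM in si-Control and 2.41 ± 1.07 CPM in si-*Fndc1* (SD, n = 5 each), a ratio of 20.9.

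*Ass1* (ENSMUSG00000076441), argininosuccinate synthase, joins citrulline to aspartate and also serves arginine synthesis outside the liver. It maps to chr2:31360219-31410684 (plus strand). Its counts were 750, 968, 841, 871 and 703 in si-Control and 1051, 1058, 946, 1027 and 825 in si-*Fndc1*. In CPM the groups just overlapped, with the highest si-Control library at 13.6 and the lowest si-*Fndc1* library at 13.5. The mean was 11.5 ± 1.43 CPM in si-Control and 14.4 ± 0.488 CPM in si-*Fndc1* (SD, n = 5 each), a ratio of 1.25 against ratios of 20.9 or more for each other member. *Gm5424*, a near copy of *Ass1* that can share its reads, stood at 4.60 ± 0.465 FPKM in si-Control and 6.02 ± 1.0 FPKM in si-*Fndc1* (SD, n = 5 each; edgeR log2 fold change 0.40, SE 0.13, adjusted p = 0.0334), so that the *Ass1* level is uncertain to the extent that reads were split between the copies.

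Of the amino acid and glyoxylate enzymes, *Hpd* (ENSMUSG00000029445), the hydroxyphenylpyruvate dioxygenase of tyrosine breakdown, maps to chr5:123309870-123320790 (minus strand). It had 0, 4, 4, 0 and 0 counts in si-Control and 216, 321, 411, 387 and 94 counts in si-*Fndc1*. The groups were far apart, at 0.0224 ± 0.0307 CPM and 4.09 ± 1.74 CPM (SD, n = 5 each), and the ratio of 182 rests on the 8 si-Control counts of replicates 2 and 3. It became 292 without replicate 2 and 291 without replicate 3. *Hpd* overlaps *Psmd9*, a proteasome chaperone gene on the opposite strand, for which the fit gave a log2 fold change of 0.02 (edgeR adjusted p = 0.777).

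*Agxt* (ENSMUSG00000026272) encodes the peroxisomal aminotransferase that removes glyoxylate, and maps to chr1:93062962-93073143 (plus strand). It was the scarcest member, with 0, 0, 0, 4 and 0 counts in si-Control and 16, 23, 47, 28 and 0 counts in si-*Fndc1*. The groups overlapped, because si-*Fndc1* replicate 5 was at 0 like 4 of the si-Control libraries. The ratio of the means was 29.4, resting on 4 counts of a single si-Control library.

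*Cyp2e1* (ENSMUSG00000025479) encodes the cytochrome P450 that oxidises ethanol and acetaminophen, and maps to chr7:140343652-140354900 (plus strand). It had 0, 17, 69, 0 and 62 counts in si-Control and 1127, 1410, 1517, 1776 and 417 counts in si-*Fndc1*. Replicates 1 and 4 of si-Control had no read, the other 3 had some, and the si-*Fndc1* library with the fewest still exceeded each of them. The mean was 0.426 ± 0.485 CPM in si-Control and 17.9 ± 6.72 CPM in si-*Fndc1* (SD, n = 5 each), a ratio of 41.9.

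*Cyp4a10* (ENSMUSG00000066072), a fatty acid omega-hydroxylase known as a target of the nuclear receptor PPARα, maps to chr4:115375461-115390846 (plus strand). It had no count in any si-Control library, and 32, 153, 289, 223 and 116 counts in si-*Fndc1*. It was the only member for which si-*Fndc1* replicate 1, and not replicate 5 or (for *Ass1*) replicate 3, was the lowest. The mean was 2.37 ± 1.37 CPM in si-*Fndc1* (SD, n = 5), at least 284-fold higher than the 3 counts that a count of 0 over the si-Control group allows.

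*Adh1* (ENSMUSG00000074207), the class I alcohol dehydrogenase of liver, maps to chr3:137966752-137996459 (plus strand). Its counts were 12, 13, 12, 0 and 12 in si-Control and 161, 353, 386, 296 and 109 in si-*Fndc1*. In si-Control it was more even than *Cyp2e1*, being present at nearly 1 level in 4 of 5 libraries, also in replicate 1, which had no *Cyp2e1* read. The mean was 0.137 ± 0.0775 CPM in si-Control and 3.74 ± 1.59 CPM in si-*Fndc1* (SD, n = 5 each), a ratio of 27.2. *Adh1* overlaps the lncRNA gene *Gm16559* on the opposite strand, which had 5 counts in a single library and none in the others.

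Per length, as FPKM, the order of the mean levels in si-*Fndc1* was *Cyp2e1* (7.40 FPKM), *Ass1* (5.34 FPKM), *Hpd* (1.70 FPKM), *Adh1* (1.5 FPKM), *Cyp4a10* (1.0 FPKM), *Arg1* (0.960 FPKM), *Cps1* (0.455 FPKM) and *Agxt* (0.167 FPKM). Only the step from *Ass1* to *Hpd* had ranges that did not overlap. *Cyp2e1* was above *Ass1* in 4 of 5 libraries, *Hpd* above *Adh1* in 3, *Adh1* above *Cyp4a10* in 4 and *Cyp4a10* above *Arg1* in 3, whereas *Arg1* was above *Cps1*, and *Cps1* above *Agxt*, in 5 of 5. In si-Control the count of the 8 genes was nearly all *Ass1*, with a share of 87.5% to 97.8%, while in si-*Fndc1* it was 23.7% to 48.7% *Ass1* and 24.6% to 41.8% *Cyp2e1*.

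The bases upstream of the annotated start are shown for *Ass1* and *Cyp2e1*, the member with a level in both groups and the most abundant of those that were low in si-Control. The sequences are the 250 bases before the start in RefSeq (GRCm38.p6), 5′ to 3′ on the plus strand, with each CG dinucleotide in capitals, chr2:31470020-31470269 for *Ass1* and chr7:140763569-140763818 for *Cyp2e1*.
Ass1: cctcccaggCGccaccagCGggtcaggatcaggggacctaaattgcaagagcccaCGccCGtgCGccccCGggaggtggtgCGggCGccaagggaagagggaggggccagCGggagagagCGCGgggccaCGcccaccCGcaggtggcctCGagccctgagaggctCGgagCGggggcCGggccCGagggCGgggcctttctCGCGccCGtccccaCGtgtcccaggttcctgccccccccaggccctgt
Cyp2e1: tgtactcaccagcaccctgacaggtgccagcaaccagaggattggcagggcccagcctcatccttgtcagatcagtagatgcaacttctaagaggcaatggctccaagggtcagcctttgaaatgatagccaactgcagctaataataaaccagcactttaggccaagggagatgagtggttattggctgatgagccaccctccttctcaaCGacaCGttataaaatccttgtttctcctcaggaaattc
The *Ass1* window held 23 CG dinucleotides and was 75.6% G or C, and 86.7% of 32851 windows of this length held fewer. The *Cyp2e1* window held 2 and was 48.8% G or C, and 18.8% held fewer. Of the other members, 3 had an entry, and *Agxt*, *Adh1* and *Hpd* held 2, 5 and 7 CG dinucleotides, against a median of 6 over all windows. The letters TATAAA, sought on both strands, were in the *Cyp2e1* window and in none of the other 4, and were in 12.4% of all windows.

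Between the si-*Fndc1* libraries the members other than *Ass1* mostly shared their lowest library. Their summed level was 25.3, 38.6, 43.6, 45.2 and 15.4 CPM in replicates 1 to 5, against 0.315, 0.477, 1.55, 0.274 and 1.5 CPM in si-Control. Replicate 5 was the lowest for *Cps1*, *Arg1*, *Agxt*, *Hpd*, *Cyp2e1* and *Adh1*. The highest library exceeded the lowest by 2.87-fold for *Adh1* to 3.54-fold for *Hpd* among the 5 of these with a count in every library, and by 9.17-fold for *Cyp4a10*, against 1.09-fold for *Ass1*.

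Albumin (*Alb*), the main protein that hepatocytes secrete into plasma, was also higher in si-*Fndc1*. It had 8, 99, 357, 0 and 492 counts in si-Control and 7687, 11579, 9004, 10794 and 1763 counts in si-*Fndc1*, so replicate 5 was again the lowest of its group. Per 1000 *Alb* counts, *Cyp2e1* had 147, 122, 168, 165 and 237 counts in si-*Fndc1* replicates 1 to 5, and 172, 193 and 126 counts in si-Control replicates 2, 3 and 5. These 3 si-Control values, which rest on 17 to 69 *Cyp2e1* counts, lay within the range of the si-*Fndc1* values, while replicate 1, with 8 *Alb* counts, had no *Cyp2e1* count and replicate 4 had neither. Other members did not all lie so, *Adh1* having 131, 33.6 and 24.4 counts per 1000 *Alb* counts in si-Control replicates 2, 3 and 5 against 20.9 to 61.8 in si-*Fndc1*, and *Arg1* having 0, 50.4 and 0 against 15.5 to 34.6. Relative to *Alb* the spread over the si-*Fndc1* libraries was 1.94-fold for *Cyp2e1*, 1.92-fold for *Hpd*, 2.24-fold for *Arg1*, 2.55-fold for *Cps1* and 2.95-fold for *Adh1*, and it was 15.8-fold for *Cyp4a10*. Hepatocyte plasma protein genes, *Alb* among them, summed to 2762, 3632, 4531, 3736 and 6037 counts per 1000 *Alb* counts in replicates 1 to 5. *Alb* was thus low beside them in replicate 5, which raises values relative to *Alb* there. In libraries of whole cultures, fewer cells of a type and less RNA per cell cannot be told apart.

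**Figure D2:**
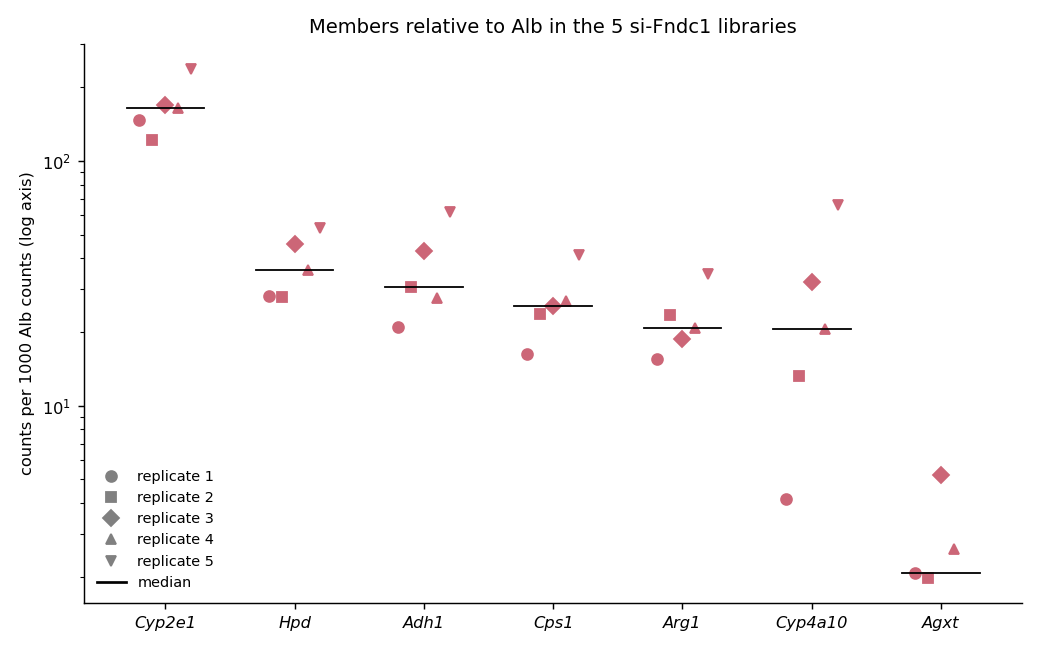
Counts of 7 members per 1000 Alb counts (vertical axis, log scale) in the 5 si-Fndc1 libraries, with 1 symbol per replicate and a line at the median. Cyp4a10 ran from 4.16 in replicate 1 to 65.8 in replicate 5, whereas Cyp2e1 ran from 122 to 237; Agxt in replicate 5 was at 0 and is not drawn.

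The share of *Cyp4a10* differed between the si-*Fndc1* libraries. It made up 1.12% of the counts of the 8 genes in si-*Fndc1* replicate 1 (exact Clopper-Pearson 95% interval 0.770% to 1.58%) and 6.84% in replicate 5 (5.69% to 8.15%). Per 1000 *Cyp2e1* counts it had 28.4, 109, 191, 126 and 278 counts in replicates 1 to 5. *Cyp4a14*, its neighbour 22122 bases away and an omega-hydroxylase of the same subfamily, was likewise highest in replicate 3 and lowest in replicate 1, with 4, 156, 209, 119 and 102 counts in si-*Fndc1* and none in si-Control. Both were thus lowest in replicate 1, although that library had more *Alb*, *Cyp2e1* and *Hpd* counts than replicate 5. Of the other close copies, *Cyp4a32* had 0 to 29 counts in si-*Fndc1* and *Cyp4a31* had none, and reads shared within this subfamily make the single levels uncertain.

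The libraries of si-*Fndc1* also differed in hepatic transcripts known to differ between male and female mice. Of 7 male-biased genes, the sum was 0.338 CPM in replicate 1 and 9.24 to 26.8 CPM in replicates 2 to 5, and *Mup20*, a major urinary protein, had 0, 1670, 787, 1150 and 418 counts. Of 10 female-biased genes, the sum was 2.35 CPM in replicate 5 and 11.8 to 17.7 CPM in replicates 1 to 4, and 7 of them, among them *Cyp2a4* with 80, 164, 153, 83 and 0 counts, had no count in replicate 5. In CPM, replicate 1 was thus low in the male-biased list and in *Cyp4a10*, and replicate 5 in the female-biased list and, at 0, in *Agxt*. Replicate 5 was also the lowest for *Alb*. Per 1000 *Alb* counts the female-biased list stood at 121, 83.5, 137, 78.1 and 75.4 in replicates 1 to 5. What part these differences have in the members' levels was not tested. Left out in turn, replicates 1 and 5 gave a mean of 35.7 and 38.2 CPM for the sum of the 7 members, against 33.6 CPM over all 5.

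**Figure D3:**
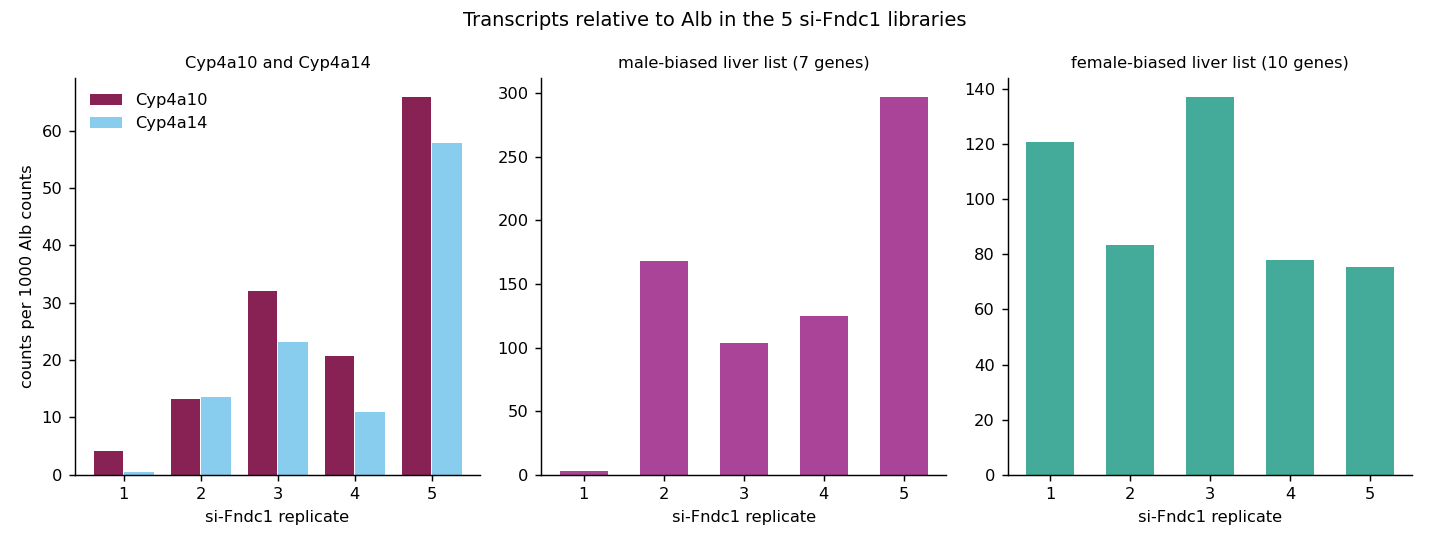
Counts per 1000 Alb counts (vertical axes, linear from 0) in the 5 si-Fndc1 libraries (horizontal axes) of Cyp4a10 and Cyp4a14, of 7 male-biased and of 10 female-biased liver genes. The male-biased list stood at 3.12 in replicate 1 and at 104 to 297 in the others. The female-biased list stood at 75.4 in replicate 5 and at 78.1 to 137 in the others. All its 133 counts in replicate 5 came from Cyp3a41a, Cyp3a41b and Cyp2b13, which also had counts in si-Control.

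The pathways around the members were described with 106 other hepatic enzymes in 10 groups. Among the 43 that were tested, 15 were higher and 3 lower in si-*Fndc1* and 25 did not pass (edgeR's quasi-likelihood test, adjusted p under 0.05), and 63 were below the filter. Over all 13548 tested genes 17.3% were higher and 17.2% lower, with a median log2 fold change of 0.00 against 0.10 for the tested enzymes. Of the 33 with a si-Control mean of at least 0.5 FPKM, 6 were higher, 3 lower and 24 not called, with a median log2 fold change of 0.01. Of the 10 that passed the filter through si-*Fndc1* alone, 9 were higher, which the filter favours, so that this count supports nothing. Of all 73 under 0.5 FPKM in si-Control, 46 were higher without overlap of the groups and 0 were lower without overlap, against 2.08% and 0.626% of the 15485 genes with a count and a like si-Control level. Of the 73, 21 had no count in any si-Control library and could not be lower, and the list was drawn up with liver transcripts already known to be higher. The lowest si-*Fndc1* level was in replicate 5 for 44 of the 73.

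**Figure D4:**
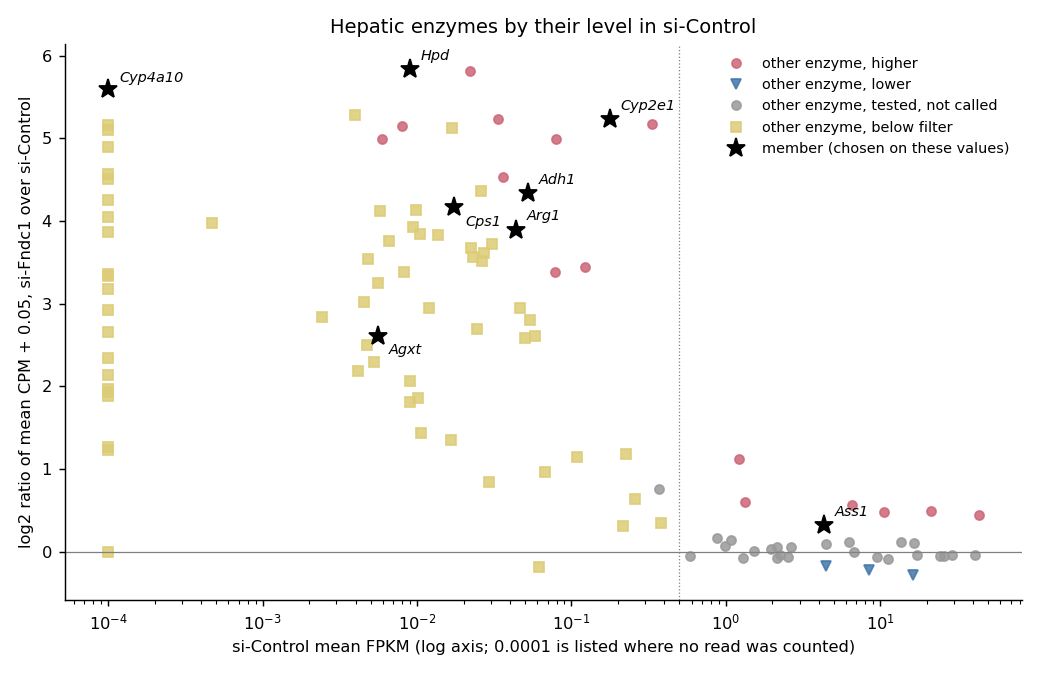
Log2 ratio of mean CPM, with 0.05 CPM added, in si-Fndc1 over si-Control (vertical axis) against the si-Control mean FPKM (horizontal axis, log scale) for 106 hepatic enzymes and the 8 members (stars). To the right of the dotted line at 0.5 FPKM lay Ass1 and 33 other enzymes, of which 24 were not called. To its left, 71 of 73 other enzymes had a higher mean in si-Fndc1.

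By pathway, neither of the tested genes of the urea cycle list was called. *Asl*, which cleaves argininosuccinate after *Ass1* has made it, was at 6.76 ± 0.462 and 6.68 ± 0.241 FPKM in si-Control and si-*Fndc1* (SD, n = 5 each; adjusted p = 0.915). *Slc25a15*, the ornithine carrier, was also not called (0.876 and 0.979 FPKM, adjusted p = 0.362), and *Slc25a13*, the aspartate-glutamate carrier, was below the filter. *Otc*, the mitochondrial enzyme after *Cps1*, had 0, 0, 8, 0 and 0 counts in si-Control and 12, 64, 38, 52 and 21 in si-*Fndc1*.

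In phenylalanine and tyrosine breakdown, the pathway of *Hpd*, *Qdpr*, which recycles the hydroxylase cofactor, rose from 10.6 ± 2.84 to 14.8 ± 0.683 FPKM (log2 fold change 0.48, adjusted p = 0.0320). *Fah* (17.3 and 16.7 FPKM) and *Gstz1* (4.45 and 4.74 FPKM), the last enzymes of the pathway, were not called. *Tat*, which acts directly before *Hpd*, and *Hgd*, which acts directly after it, were below the filter, with 0 to 19 counts per si-Control library and 18 to 186 per si-*Fndc1* library.

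In the glyoxylate, glycine and serine group of *Agxt*, the glyoxylate reductase gene *Grhpr* fell from 16.3 ± 1.24 to 13.3 ± 1.25 FPKM (log2 fold change -0.28, adjusted p = 0.0157), while *Hoga1* and *Amt* were not called. In the methionine and one-carbon group *Ahcy*, *Cth* and *Aldh1l1* were not called, and 2 genes were called higher, *Mat1a* (0.0219 and 1.99 FPKM) and *Gnmt* (0.122 and 1.75 FPKM), both having passed the filter through si-*Fndc1* alone. No enzyme of tryptophan and histidine breakdown passed the filter, *Tdo2*, *Ftcd* and *Uroc1* being the most abundant at 0.421, 0.244 and 0.173 FPKM in si-*Fndc1*.

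Among the cytochrome P450 enzymes beside *Cyp2e1* and *Cyp4a10*, *Cyp2d26* stood at 0.00796 and 1.17 FPKM and *Cyp2f2*, known from periportal hepatocytes, at 0.0785 and 1.06 FPKM in si-Control and si-*Fndc1*. Both passed the filter through si-*Fndc1* alone, so their calls are no test of the direction. *Cyp4v3*, at 2.13 and 2.01 FPKM, was not called. In the group of *Adh1*, catalase (*Cat*) rose from 21.3 ± 0.829 to 29.7 ± 0.532 FPKM (adjusted p = 1.17e-05), and *Adh5* and *Aldh2*, the widely expressed alcohol and aldehyde dehydrogenases, were not called, at 13.7 and 14.8 FPKM and at 41.3 and 39.8 FPKM. *Adh7*, a relative of *Adh1*, had a log2 fold change of -0.04 (adjusted p = 0.774).

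In fatty acid oxidation and ketogenesis, *Fabp1*, the liver fatty acid binding protein, stood at 0.332 and 14.9 FPKM and also passed the filter through si-*Fndc1* alone, and *Cpt1a*, the carnitine palmitoyltransferase that admits fatty acids to mitochondria, was not called, at 9.56 and 9.08 FPKM. In the glucose and fructose group *Pcx* and *Tkfc* fell by 0.23 and 0.18 on the log2 scale (adjusted p = 0.00867 and 0.0400), and *Khk* was not called. In conjugation and hydrolysis *Gstp1* rose from 43.5 ± 2.24 to 59.0 ± 3.30 FPKM (adjusted p = 0.00010), and *Ephx1*, an epoxide hydrolase, was not called. Of the 30 enzymes taken as the most abundant of their groups, 26 were tested, 6 were higher, 3 lower and 17 not called. Over all tested genes 17.3% were higher and 17.2% lower. *Cyp2d26*, *Cyp2f2* and *Fabp1*, among the 6, had passed the filter through si-*Fndc1* alone, so their calls add nothing to the count.

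The genes whose level over the 10 libraries was most like that of the members were sought among all tested genes with a symbol. Likeness was measured as the root mean square difference, in log2(CPM + 0.5) centred on each gene, from the median of the 8 members. The measure covers both groups, so the step between them, for which the members were chosen, weighs in it. That liver genes came out nearest therefore supports nothing. The 8 nearest were *Hrg* (0.0882), *Cyp2d26* (0.178), *Azgp1* (0.206), *Hamp* (0.220), *Apoh* (0.221), *Fbp1* (0.250), *Rdh7* (0.260) and *Apoa5* (0.279), while the members themselves lay between 0.152 for *Adh1* and 1.16 for *Ass1*. *Hrg*, *Azgp1*, *Hamp*, *Apoh* and *Apoa5* encode secreted proteins, and *Cyp2d26*, *Fbp1* and *Rdh7* enzymes inside the cell. Of the 16 protein-coding genes that lie nearest to the members on either side, 5 were tested, 0 were called higher by edgeR, 1, the histone methyltransferase gene *Setd1b* beside *Hpd*, was lower (log2 fold change -0.61, adjusted p = 9.02e-05), and *Cyp4a14* alone was higher without overlap.

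Markers of other cells and tissues were read beside the members. *Cps1* and *Arg1* are known from periportal and *Cyp2e1* from pericentral hepatocytes. Of 7 other periportal genes, 3 were tested and 3 were higher (*Pck1*, *Cyp2f2* and *Hsd17b13*), the former 2 having passed the filter through si-*Fndc1* alone. Of 8 other pericentral genes, 4 were tested, 1 was higher (*Oat*) and 1 lower (*Axin2*), with *Glul* at a log2 fold change of 0.11 (edgeR adjusted p = 0.0544). *Cyp1a2*, *Cyp2c29*, *Rgn* and *Slc1a2* were below the filter, at 0 to 19 counts per si-Control and 0 to 199 per si-*Fndc1* library. Without overlap of the groups, 3 of the 7 were higher and 0 lower, and 4 of the 8 were higher and 1 lower. Of all genes with a count, 6.79% were higher without overlap. The 37 hepatocyte plasma protein genes summed to 8.47 to 33.6 CPM in si-Control and 188 to 584 CPM in si-*Fndc1*, and 33 of 33 tested were higher (17.3% over all tested genes). Of these, 31 had passed the filter through si-*Fndc1* alone, so that their mean FPKM had to be higher there. Of all 233 genes that passed in this way, 99 were called higher. Of 15 liver transcription factor genes, only 1, *Cebpa*, was tested and 0 were called (edgeR; 0 at an unadjusted p under 0.05, 0 by DESeq2 and 0 by limma), the others being below the filter. Without si-Control replicate 2, *Cebpa* was called lower (edgeR adjusted p = 0.000477). Of the 15, 2 were higher without overlap (6.79% of all genes with a count) and 0 lower. These were *Hnf4a*, with 0, 0, 4, 0 and 4 counts in si-Control and 69, 56, 91, 88 and 23 counts in si-*Fndc1*, and *Nr1i3*, with 0 to 6 and 27 to 103 counts. Of 14 genes of liver cells other than hepatocytes, 3 had no count and the sum was 41.6 to 49.4 CPM in si-Control and 36.3 to 46.3 CPM in si-*Fndc1*. Most of this sum was *Sox9* (means 34.0 and 29.3 CPM) and *Krt19* (8.30 and 8.38 CPM). *Stab2*, *Oit3* and *Reln* also had counts in every library. The Kupffer cell gene *Clec4f* alone was higher without overlap, with no si-Control count and 8 to 29 counts per si-*Fndc1* library. *Cd5l*, *Marco*, *Vsig4*, *Clec4g* and *Lyve1* had no si-Control count either, and 0 to 15 counts per si-*Fndc1* library.

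For tissues other than liver, the summed levels were at most 0.617 CPM for 9 kidney genes, 0.115 CPM for 6 adipose genes, 0.109 CPM for 4 lung genes and 0.0420 CPM for 4 testis genes in any library. The fetal liver gene *Afp* had no count. The kidney genes *Umod*, *Slc34a1*, *Kap* and *Slc22a6* and the adipose genes *Adipoq*, *Plin1*, *Cfd*, *Lep* and *Retn* were at 0 in all 10 libraries. The 9 blood genes summed to 0.748 to 1.78 CPM and 1.54 to 2.39 CPM, the 5 brain genes to 1.20 to 2.02 CPM and 1.06 to 2.02 CPM, and the 8 pancreas genes to 39.2 to 42.8 CPM and 37.4 to 42.0 CPM in si-Control and si-*Fndc1*. Within the blood list the globin gene *Hbb-bs* had 0, 1, 0, 0 and 0 counts in si-Control and 7, 36, 33, 29 and 0 counts in si-*Fndc1*. Of these tissue sums, that of the 8 intestine genes alone separated the groups, at 0.506 to 1.21 CPM and 2.50 to 8.45 CPM. Of the 8, 2 were higher without overlap (6.79% of all genes with a count). *Apoa4*, which liver also makes, had 0 to 4 counts per si-Control and 107 to 536 per si-*Fndc1* library. *Fabp2*, the intestinal fatty acid binding protein, had no si-Control count and 4, 16, 23, 19 and 12 counts in si-*Fndc1*. The part of any of these cells in the members' levels was not tested.

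**Figure D5:**
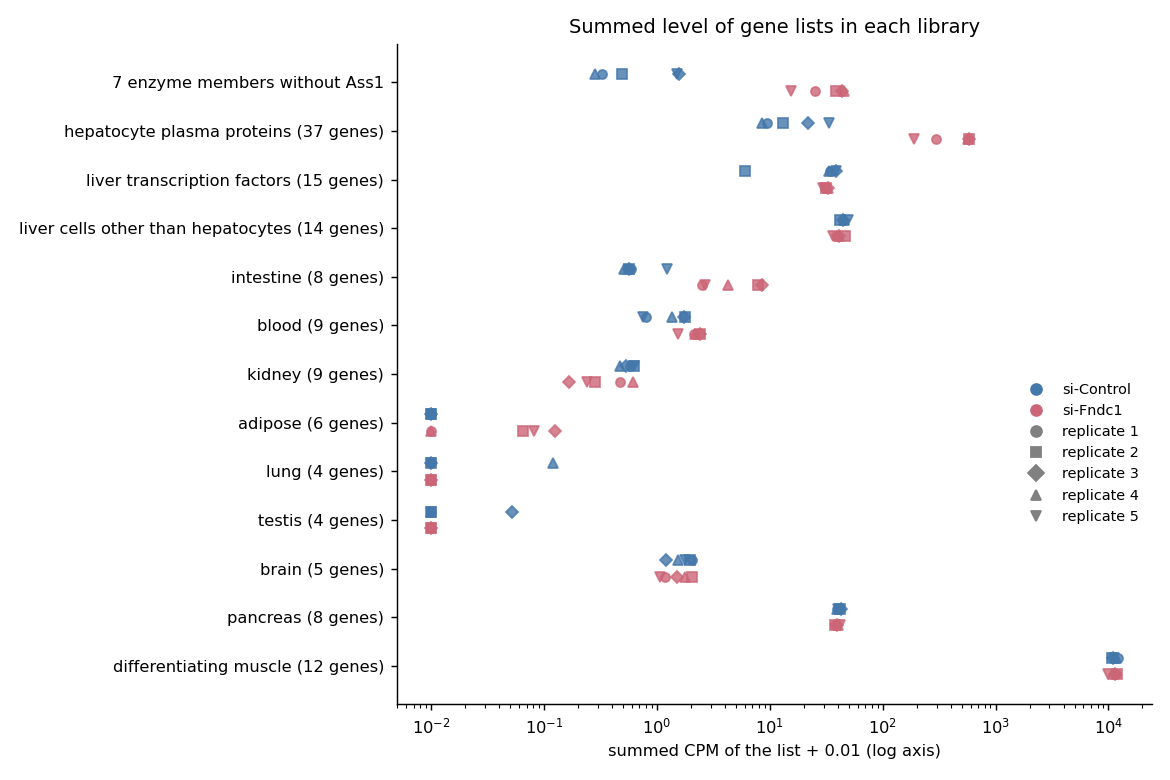
Summed CPM, with 0.01 added (horizontal axis, log scale), of gene lists (rows) in each of the 10 libraries, with 1 symbol per replicate and colour for the group. The enzyme members without Ass1, the plasma proteins and the intestine list separated the groups, whereas the kidney, brain, pancreas and muscle lists overlapped. The members without Ass1 lay at 0.274 to 1.55 CPM against 15.4 to 45.2 CPM.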

How the data were processed

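RNA-seq of 10 C2C12 libraries was analysed, 5 si-Control and 5 si-*Fndc1*, grouped by their labels. The authors deposited, for every gene and library, an unnormalized read count and an FPKM value, listed as 0.0001 where no read was counted. The submitters' processing notes name cutadapt 1.9, FastQC and GRCm39. The table itself names no build, and its coordinates are given as GRCm39 on the strength of those notes. The methods of the study instead give TopHat, mm10 and htseq-count, and the series description STAR and mm9. They also differ in time point, serum and transfection reagent, and the values of the labels are printed. The study's methods name 4 RNA-seq libraries without saying which, and all 10 were used. Whether counting used the strand is not given in the sources used here.

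CPM values are counts scaled to 1000000 of the library total scaled by TMM. Genes with a mean of at least 0.5 FPKM were tested with edgeR 4.0.16 (quasi-likelihood test, no replicate term, R 4.3.3), with Benjamini-Hochberg adjustment over all 13548 tested genes and a threshold of 0.05. DESeq2 1.42.0, limma 3.58.1 on log2(FPKM + 1), plain library totals, no filter, a filter of 5 FPKM, a replicate block, an offset for GC content and length (11165 genes) and the omission of each library were alternatives. The fits were tested on simulated data. Levels of *Fndc1* were compared by an exact permutation test. Shares carry exact Clopper-Pearson intervals. No libraries were near copies (in 20 pairs within groups, chi-square divided by its degrees of freedom was 41.3 or more). Tables were handled in Python 3.11.15 with pandas 2.3.3, numpy 2.4.6 and scipy 1.17.1.

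The members and all lists were chosen with earlier results of these data known. Named genes are the members, *Fndc1*, *Alb*, the 3 most abundant genes of each of 10 enzyme groups, the 8 genes most like the members, near copies, nearest protein-coding neighbours, and list genes behind a count of 5 or fewer. Some of these genes are not reported here by name. Other list genes were named after their values had been seen.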

Additional observations from a re-analysis of the deposited data

Results flagged for a closer look

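In 4 of the 27 groups of 5 values examined, 1 library stood apart from the rest by Dixon's criterion, the gap to its nearest neighbour divided by the range exceeding 0.71. Chance alone gives about 1 such group in 20 where values are normally distributed. That rate cannot be applied to values at or near 0, such as those of the members in si-Control. All 4 were in si-Control, where most values are small. *Cps1* stood at 0.389 CPM in replicate 5 against 0 to 0.112 CPM in the others (gap over range 0.712). *Agxt* stood at 0.0547 CPM, or 4 counts, in replicate 4 against 0 in the others (gap over range 1.0). *Adh1* stood at 0 in replicate 4 against 0.158 to 0.182 CPM in the others (gap over range 0.865).

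The summed level of the 15 liver transcription factor genes stood at 5.98 CPM in replicate 2 against 33.7 to 38.9 CPM in the others (gap over range 0.842). Nearly all of this sum was *Cebpa*, a leucine zipper factor that liver, fat and other tissues make, with 2401, 202, 2552, 2312 and 2347 counts in si-Control and 1842, 1779, 1758, 1814 and 1468 counts in si-*Fndc1*. The log2 fold change with all libraries was -0.11 (SE 0.47, edgeR adjusted p = 0.881), and without si-Control replicate 2 it was -0.40 (SE 0.05, edgeR adjusted p = 0.000477). Both values lay below 0, whereas each member was higher in si-*Fndc1*.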

How the results depend on the processing

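The members were chosen for being higher in si-*Fndc1*, so that the sign of their fold change under other settings is no sign of stability. On log2(FPKM + 1) the changes were smaller by construction, at 2.77 for *Cyp2e1* and 0.95 for *Cyp4a10*. The number of genes called was 2538 of 11165 with the offset for GC content and length, against 4663 of 13548, and the cause was not tested. The other hepatic enzymes called were 18, but 8 with a filter of 5 FPKM and 64 of 105 with no filter (62 higher, 2 lower). The plasma protein genes called were 33, and 4 with the filter of 5 FPKM, where 4 were tested. The liver transcription factors called were 0, 3 with no filter (3 higher), and 0 to 1 with each library left out, the 1 being *Cebpa* without si-Control replicate 2. Same-numbered libraries did not deviate together (correlations -0.04 to 0.05), so that the labels' numbers give no pairing, and with a replicate block 3572 genes, 16 other enzymes, 33 plasma protein genes and 0 liver transcription factors were called. The summed level of the members and the share of *Cyp2e1* moved by less than 1 SD under the alternatives run for them. The *Fndc1* ratio lay between 0.729 and 0.772 under its alternatives. Depth limits *Agxt*, with 0 to 47 counts per library, and the si-Control levels of the members other than *Ass1*, which rest on 0 to 69 counts per library.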

Other observations

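Low counts were not spread evenly. In each library 961 to 1142 genes had exactly 4 counts, but 362 to 437 had 3 and 201 to 247 had 5, and 506 to 635 genes had 8 counts against 215 to 274 with 7 and 142 to 181 with 9. Several of the members' si-Control values are 4, 8, 12 or 16. Counting intervals take each count as independent, and so are too narrow where counts come in such steps. The cause was not tested.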
